A study of Mus musculus with 9 samples.

Results

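This account follows 39 genes that earlier work on mouse hematopoietic stem cells (HSCs) reported as more highly expressed in old animals, chosen as the rows of the authors' count file that carry their symbols, 39 of 56748 genes in all. RNA-seq had been done on HSCs sorted from mouse bone marrow as Lin−Sca1+c-Kit+CD48−CD150+ cells (the SLAM gate), in 9 libraries that form 3 groups of 3. The groups are yHSCs, from young mice of 6 to 10 weeks, and paHSCs ("pre-aged" HSCs), from mice of 14 to 16 months, which were split by the surface level of Selp (P-selectin, an adhesion receptor of platelets and endothelium) into a Selp_low and a Selp_high fraction. All mice were females on a C57BL/6 background, and the labels name no transgene, deletion or treatment in any group. Both paHSC fractions came from 1 SLAM gate that was split by Selp. The labels do not say whether libraries of the same number share mice, and the young cells were not split.

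HSCs stay in the marrow for life and give rise to every blood lineage. With age their number grows while their output per cell falls and shifts toward myeloid cells and platelets, and a set of genes repeatedly found higher in old HSCs has come to serve as a signature of that state. Its members do different things: some are secreted or nuclear stress proteins, some bind metals or detoxify aldehydes and xenobiotics, some are receptors, channels or matrix enzymes, and others act in transcription or membrane traffic. Fewer cells of a type and less RNA per cell cannot be told apart in bulk libraries, and this holds for every value below.

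The promoters of a few members are shown because 2 metallothionein genes of 1 locus gave very different values, and because 4 genes that changed had the same short motif near their start sites. RefSeq promoter windows of 300 bases (250 before and 50 after the start, build GRCm38.p6, whereas the counts use mm39) were found for 33 of the 39 genes, as 41 windows. *Clu*, *Enpp5*, *Oxr1*, *Plscr2*, *Ramp2* and *Runx1t1* had none. *Mt1* (chr8:94178839-94179138, plus strand) and *Mt2* (chr8:94172368-94172667, plus strand) are given with TGCNCNC, a loose form of the core of the metal response element, on either strand in capitals. The windows of *Clca3a1* (chr3:144760928-144761227, minus strand), *Tm4sf1* (chr3:57301939-57302238, minus strand), *Aldh1a1* (chr19:20601718-20602017, plus strand) and *Fhl1* (chrX:56779433-56779732, plus strand) are given with the GATA core, GATAA on either strand, in capitals.
Mt1: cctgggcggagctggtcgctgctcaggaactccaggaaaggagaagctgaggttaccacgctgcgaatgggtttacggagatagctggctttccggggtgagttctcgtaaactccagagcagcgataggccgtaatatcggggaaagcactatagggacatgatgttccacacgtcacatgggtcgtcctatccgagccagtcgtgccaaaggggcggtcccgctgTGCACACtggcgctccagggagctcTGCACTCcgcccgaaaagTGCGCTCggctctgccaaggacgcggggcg
Mt2: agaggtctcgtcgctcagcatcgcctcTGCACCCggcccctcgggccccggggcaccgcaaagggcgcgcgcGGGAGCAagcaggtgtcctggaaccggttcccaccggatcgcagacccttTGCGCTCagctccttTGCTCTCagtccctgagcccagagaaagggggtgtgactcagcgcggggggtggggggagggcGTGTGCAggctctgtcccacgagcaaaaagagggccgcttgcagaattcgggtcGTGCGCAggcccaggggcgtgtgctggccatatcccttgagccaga
Clca3a1: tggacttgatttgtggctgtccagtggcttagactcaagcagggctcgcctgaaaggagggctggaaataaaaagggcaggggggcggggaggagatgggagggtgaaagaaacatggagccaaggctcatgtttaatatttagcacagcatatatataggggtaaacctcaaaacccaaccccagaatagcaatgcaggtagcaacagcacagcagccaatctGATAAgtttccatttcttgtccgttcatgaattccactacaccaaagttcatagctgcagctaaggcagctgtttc
Tm4sf1: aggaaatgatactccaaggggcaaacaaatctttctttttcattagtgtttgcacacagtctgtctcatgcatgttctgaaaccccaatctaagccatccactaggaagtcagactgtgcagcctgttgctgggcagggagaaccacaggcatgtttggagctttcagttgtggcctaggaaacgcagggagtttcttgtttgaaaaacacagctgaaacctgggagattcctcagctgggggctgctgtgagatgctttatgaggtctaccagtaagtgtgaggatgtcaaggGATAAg
Aldh1a1: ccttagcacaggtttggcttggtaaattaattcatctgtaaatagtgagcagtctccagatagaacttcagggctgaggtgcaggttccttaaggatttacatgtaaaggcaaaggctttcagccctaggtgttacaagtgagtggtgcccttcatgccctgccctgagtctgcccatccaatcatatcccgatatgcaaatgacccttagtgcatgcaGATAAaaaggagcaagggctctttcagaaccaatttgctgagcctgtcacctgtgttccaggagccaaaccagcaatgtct
Fhl1: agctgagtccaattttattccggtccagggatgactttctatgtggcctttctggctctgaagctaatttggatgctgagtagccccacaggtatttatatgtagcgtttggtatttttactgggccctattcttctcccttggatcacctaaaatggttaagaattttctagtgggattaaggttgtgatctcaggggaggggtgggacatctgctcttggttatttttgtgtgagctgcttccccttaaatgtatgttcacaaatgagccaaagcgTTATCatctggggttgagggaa

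The window of *Mt1* held 3 matches to TGCNCNC and that of *Mt2* held 6, and such a match was present in 58.5% of the windows of the 39 genes and in 51.0% of all 32851 windows. GATAA was present in 26.8% of the members' windows and 25.4% of all windows, so the gene set as a whole held it about as often as other promoters. The 4 GATAA windows shown belong to genes picked after their values were seen; those genes have 6 windows in all, of which 4 held the motif. Of the other motifs searched on both strands, an AP-1 motif (TGANTCA) was in 14.6% of the members' windows against 7.81%, the TEAD motif GGAATG in 17.1% against 14.7%, the ETS core CCGGAA in 14.6% against 14.9%, the RUNX core TGTGGT in 12.2% against 16.8%, a STAT motif (TTCNNNGAA) in 4.88% against 8.3% and TATAAA in 4.88% against 13.6%. The median GC content was 55.0% for the members' windows and 52.67% for all. These are matches of letters and not binding sites.

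Depth ranged from 24866975 to 35375310 counts per library. TMM scaling factors ran from 0.545 in Selp_low replicate 2 to 1.22 in yHSC replicate 2. Genes with a count numbered 21094 in yHSC replicate 2 and 21755 and 25192 in Selp_high replicates 1 and 3. In the other libraries they numbered 31236 to 34143. Levels are given as CPM, a gene's counts scaled to a common library size with the TMM factors of edgeR, in the order of replicates 1, 2 and 3. Groups were compared pairwise by the quasi-likelihood test of edgeR, with p-values adjusted over all genes tested (Benjamini-Hochberg). A gene counted as called where its adjusted p did not exceed 0.05 and its log2 fold change was 1 or more in either direction, and DESeq2 was run beside it at the same thresholds. The 10 most abundant genes took 44.8% and 20.9% of the counts in Selp_low replicates 2 and 3, 12.5% in yHSC replicate 1 and at most 8.94% elsewhere. The summed level of 10 neutrophil markers ran from 548 to 213494 CPM, with its highest value in Selp_low replicate 3. All 10 HSC markers listed had counts in every library. Their summed level was 1127 to 2605 CPM in yHSCs, 1028 to 1636 CPM in Selp_low and 2536 to 3475 CPM in Selp_high paHSCs. But *Slamf1*, which encodes the CD150 of the gate, was at 10.9 to 19.3 CPM in yHSCs against 78.6 to 198 CPM in Selp_high paHSCs. *Cd48*, excluded by the gate, reached 175 and 309.8 CPM in Selp_low replicates 1 and 2. *Selp* itself was at 20.6, 30.0 and 23.2 CPM in yHSCs, 109, 29.4 and 93.4 CPM in Selp_low and 652, 266 and 265 CPM in Selp_high paHSCs.

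Most of the 39 genes were more abundant in Selp_high paHSCs than in yHSCs, with Selp_low paHSCs between them. In Selp_high paHSCs over yHSCs, 36 of the 38 genes tested were higher and 2, *Slc22a3* and *Arap2*, were lower. *Mt2* had too few counts to be tested here or in the other comparisons, all of which kept the same 38 genes. The median log2 fold change was 2.12, against -0.03 over all 20017 genes. edgeR called 5 members, all higher: *Clu*, *Clca3a1*, *Tm4sf1*, *Fhl1* and *Aldh1a1*. It called 0.165% of all genes tested, and 0.105% as higher. A log2 fold change of 1 or more was found for 33 of the 38 members and 9.05% of all genes, and 29 members against 4.48% of all genes were higher with an unadjusted p under 0.05. DESeq2 called 25 members, all higher, and 0.926% of the 41339 genes it was given as higher. Every Selp_high library lay above every yHSC library for 28 of the 38 genes tested and for 8.53% of all genes; with 3 libraries against 3 an exact permutation test cannot go below p = 0.1. Leaving out 1 library at a time, edgeR called 4 members without yHSC replicate 1, 1 (*Clu*) without Selp_high replicate 1 and 0 without each of the other 4. Those 4 members were *Clu*, *Clca3a1*, *Aldh1a1* and *Gstm2*, the last not called with all libraries. *Tm4sf1* and *Fhl1* were thus called in none of these fits. Beside these counts, a list of 8 megakaryocyte and platelet markers summed to 1203 to 7136 CPM in Selp_high paHSCs against 110.0 to 179 CPM in yHSCs, all 8 being counted in every library, and their part in the levels of the 39 genes was not tested. Of the 39 genes, 32 had at least 10 counts in each of the 9 libraries, so their entry into the test did not hinge on 1 group.

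**Figure D1:**
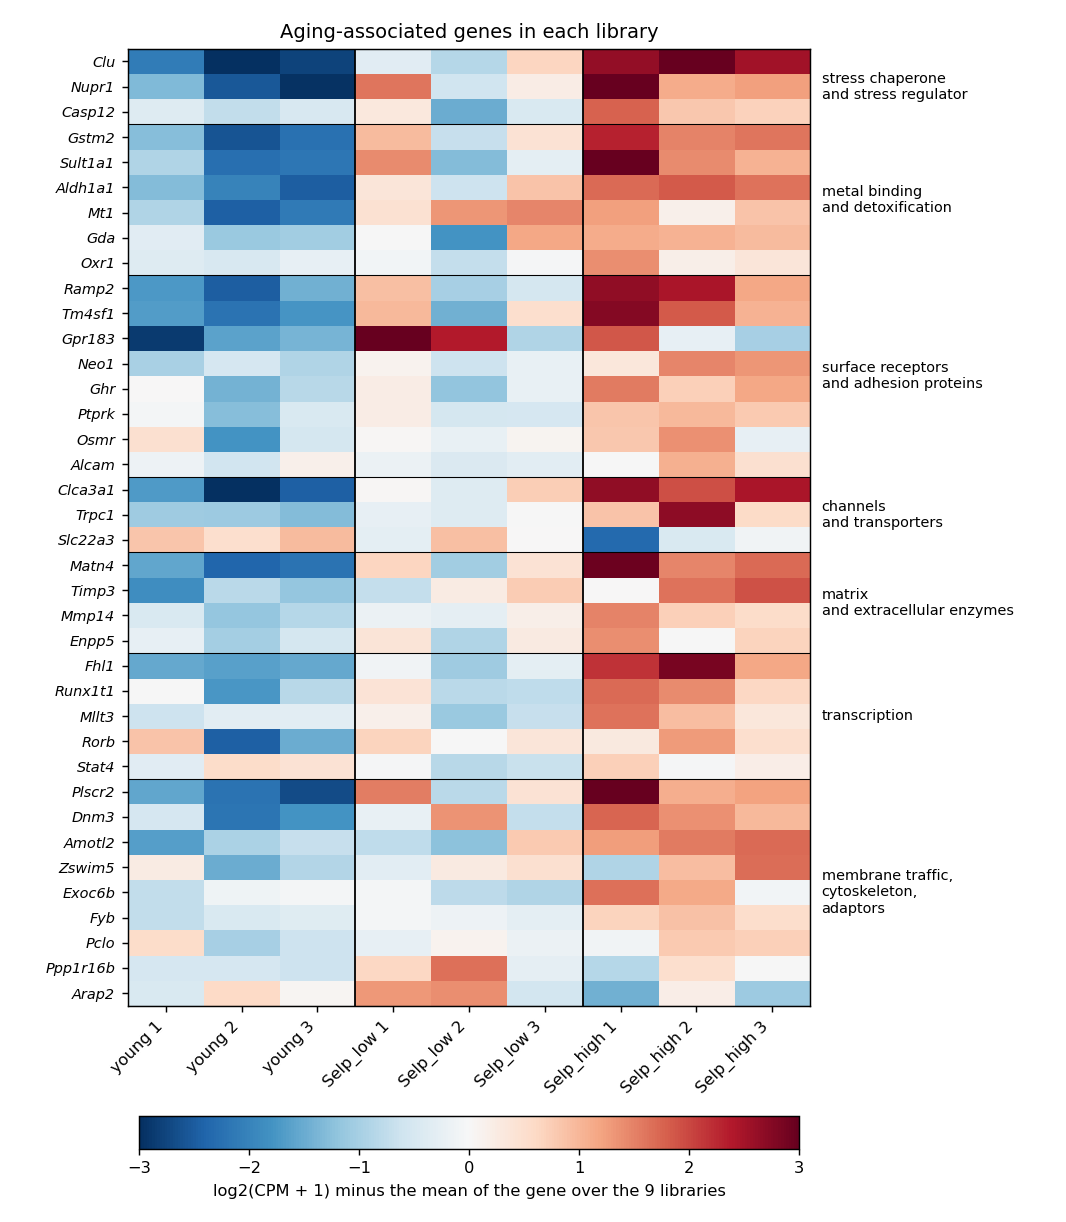
Level of the 38 genes tested (lines, grouped by role) in the 9 libraries (columns), as log2(CPM + 1) minus the mean of the gene over the 9 libraries; red is above that mean and blue below it. The yHSC columns are mostly blue and the Selp_high columns mostly red, while *Gpr183*, *Slc22a3*, *Ppp1r16b* and *Arap2* depart from that pattern.

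Of the stress genes, *Clu* had the largest change that edgeR called. *Clu* (ENSMUSG00000022037, chromosome 14 from 66205932 to 66218996 on the plus strand of mm39) encodes clusterin, a secreted chaperone of misfolded proteins. It was at 14.9, 7.65 and 9.06 CPM in yHSCs, 53.3, 36.7 and 106 CPM in Selp_low and 426, 654 and 389 CPM in Selp_high paHSCs. The 3 groups did not overlap. The log2 fold change was 5.50 (SE 0.43, adjusted p = 0.0159 by edgeR) in Selp_high paHSCs over yHSCs. *Nupr1*, a small nuclear protein induced by stress, was at 23.8, 9.49 and 6.81 CPM in yHSCs, 186, 39.7 and 71.3 CPM in Selp_low and 583, 132 and 144 CPM in Selp_high paHSCs. Its replicate 1 stood far above the others in both paHSC fractions, and no paHSC library was as low as the highest yHSC library. The log2 fold change of *Nupr1* was 4.37 (SE 0.82), which DESeq2 called (adjusted p = 4.58e-07) and edgeR did not (adjusted p = 0.141). *Casp12*, a caspase of the endoplasmic reticulum, went from 37.6, 29.4 and 35.3 CPM in yHSCs to 172, 87.7 and 80.3 CPM in Selp_high paHSCs, while its Selp_low libraries, at 62.1, 17.0 and 35.7 CPM, overlapped with yHSCs. Its log2 fold change of 1.70 was called by DESeq2 (adjusted p = 0.00359) and not by edgeR (adjusted p = 0.173).

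The genes of metal binding and detoxification were higher in Selp_high paHSCs for all 6 members tested, of which edgeR called 1 and DESeq2 called 5. *Aldh1a1* (chromosome 19 from 20470079 to 20620829, plus strand), an aldehyde dehydrogenase that makes retinoic acid from retinaldehyde, was at 38.0, 22.7 and 16.4 CPM in yHSCs, 121, 61.2 and 173 CPM in Selp_low and 309, 343 and 294 CPM in Selp_high paHSCs. Its Selp_high libraries were the most alike of the 5 called genes, with a mean of 315 ± 25.0 CPM (SD, n = 3). The log2 fold change over yHSCs was 3.57 (SE 0.40, adjusted p = 0.0274 by edgeR). *Gstm2*, a glutathione transferase of the mu class, was at 5.23, 1.48 and 2.16 CPM in yHSCs, 28.1, 8.25 and 19.2 CPM in Selp_low and 73.5, 41.4 and 44.4 CPM in Selp_high paHSCs, again with no overlap between groups. Its log2 fold change of 4.12 had an adjusted p of 0.0713 by edgeR and 7.42e-10 by DESeq2. *Sult1a1*, a sulfotransferase of phenols, was at 45.8, 17.3 and 18.3 CPM in yHSCs, 230.1, 34.7 and 69.7 CPM in Selp_low and 721, 232 and 179.6 CPM in Selp_high paHSCs. Like *Nupr1*, it was highest in replicate 1 of both paHSC fractions. DESeq2 called its log2 fold change of 3.76 (adjusted p = 3.13e-06), and edgeR did not (adjusted p = 0.141). *Gda*, the guanine deaminase, went from 26.5, 15.1 and 15.9 CPM in yHSCs to 73.7, 70.7 and 65.8 CPM in Selp_high paHSCs, and its Selp_low libraries scattered over and beyond that whole range, at 33.4, 8.98 and 77.0 CPM. *Oxr1*, which protects against oxidative damage, was at 131, 123 and 145 CPM in yHSCs, 162, 105 and 166 CPM in Selp_low and 449.6, 194 and 221 CPM in Selp_high paHSCs. DESeq2 called *Gda* (log2 fold change 1.83, adjusted p = 0.000430) but not *Oxr1* (1.09, adjusted p = 0.172).

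Of the metallothioneins, small cysteine-rich proteins that bind zinc and copper, only *Mt1* had enough counts to be tested, and its levels did not separate the paHSC fractions. *Mt1* was at 39.1, 12.6 and 16.1 CPM in yHSCs, 101, 186 and 203 CPM in Selp_low and 175, 81.2 and 133 CPM in Selp_high paHSCs. Every paHSC library lay above every yHSC library, while the paHSC fractions overlapped. Its fitted log2 fold change in Selp_high over Selp_low was -0.34, and 0.37 without Selp_low replicates 2 and 3. Its log2 fold change over yHSCs was 2.87 (SE 0.55) in Selp_low and 2.47 (SE 0.53) in Selp_high paHSCs, both called by DESeq2 (adjusted p = 0.00138 and 0.00117) and neither by edgeR (adjusted p = 0.332 and 0.185). *Mt2*, which lies 5.51 kb from *Mt1*, held 46 counts over all 9 libraries and did not exceed 0.388 CPM in any. It had 0 counts in yHSC replicates 2 and 3, which allows up to 0.0851 and 0.0886 CPM before TMM scaling. Per transcript length, the mean levels in Selp_high paHSCs were 104 ± 37.6 FPKM for *Mt1* and 0.387 ± 0.239 FPKM for *Mt2* (SD, n = 3). The promoter of *Mt2* printed above holds the larger number of matches to the loose motif TGCNCNC of the 2 genes. *Mt2* overlaps a non-coding gene on the other strand, *Gm45774*, whose level was no higher than 0.346 CPM. The libraries do not mark strand, so reads of a stretch shared by these genes cannot be assigned by strand. The part of this overlap in the low counts of *Mt2* was not tested.

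**Figure D2:**
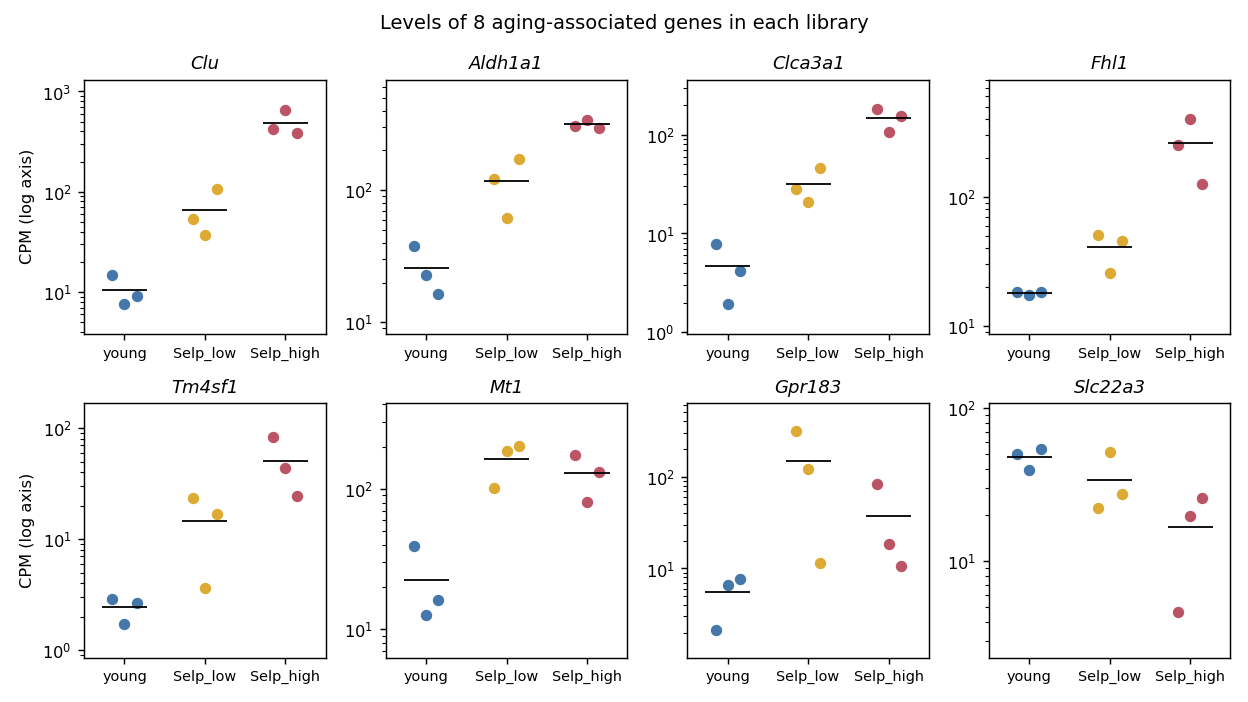
Level in CPM, on a log axis, of 8 of the genes in each library; each point is 1 library and each line the mean of 3. The groups are apart and in the order yHSC, Selp_low, Selp_high for *Clu*, *Aldh1a1*, *Clca3a1*, *Fhl1* and *Tm4sf1*, whereas *Mt1* overlapped between the paHSC fractions, *Gpr183* was highest in 2 Selp_low libraries and *Slc22a3* was highest in yHSCs.

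All 8 surface receptors and adhesion proteins had higher fitted levels in Selp_high paHSCs than in yHSCs, of which edgeR called 1 and DESeq2 called 5. *Tm4sf1* (chromosome 3 from 57193032 to 57209409, minus strand), a membrane protein of the tetraspanin-like family that is abundant on endothelium, was at 2.92, 1.72 and 2.68 CPM in yHSCs, 23.5, 3.63 and 16.8 CPM in Selp_low and 83.5, 43.5 and 24.7 CPM in Selp_high paHSCs. Its log2 fold change was 4.35 (SE 0.55, adjusted p = 0.0458 by edgeR). The call was lost whichever library was left out, and in 1 edgeR fit of all 9 libraries (adjusted p = 0.0944). A list of 8 endothelial markers, all counted in every library, summed to 125 to 390.3 CPM in yHSCs, 134 to 147 CPM in Selp_low and 300.1 to 425 CPM in Selp_high paHSCs, with the junction gene *Cdh5* at or below 1.64 CPM, and their part in the level of *Tm4sf1* was not tested. *Ramp2*, which pairs with the receptor Calcrl to bind adrenomedullin, was at 2.31, 0.951 and 3.01 CPM in yHSCs, 19.3, 4.49 and 6.49 CPM in Selp_low and 67.5, 57.9 and 23.2 CPM in Selp_high paHSCs. The groups did not overlap, and the log2 fold change of 4.56 (SE 0.61) missed the threshold in edgeR (adjusted p = 0.0579) and passed it in DESeq2 (adjusted p = 9.49e-13). *Ghr*, the growth hormone receptor, went from 13.4, 4.31 and 6.92 CPM in yHSCs to 41.1, 22.4 and 30.7 CPM in Selp_high paHSCs. *Neo1*, the receptor neogenin for netrins and repulsive guidance molecules, went from 2.92, 4.41 and 3.09 CPM in yHSCs to 7.29, 4.03 and 5.63 CPM in Selp_low and 8.79, 20.4 and 18.2 CPM in Selp_high paHSCs. *Ptprk*, a receptor tyrosine phosphatase, went from 5.87, 1.95 and 4.16 CPM in yHSCs to 11.6, 13.0 and 11.3 CPM in Selp_high paHSCs. For *Ghr* and *Ptprk* the Selp_low libraries overlapped with those of yHSCs, at 5.28 to 15.5 CPM and 3.96 to 7.36 CPM, and in all 3 genes the Selp_high libraries stood above the other 6. DESeq2 called *Neo1* (log2 fold change 2.15, adjusted p = 0.000622) and *Ghr* (1.89, adjusted p = 0.0249) but not *Ptprk* (1.55, adjusted p = 0.0855). *Osmr*, a subunit of the oncostatin M receptor, ranged from 0 to 3.87 CPM in yHSCs and from 1.92 to 7.95 CPM in Selp_high paHSCs, and *Alcam*, an adhesion molecule that binds CD6, from 15.7 to 26.6 CPM and from 23.8 to 51.0 CPM, so that neither separated these groups.

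*Gpr183*, a receptor for oxysterols that guides B cells and dendritic cells, was the receptor with the most uneven levels. It was at 2.14, 6.56 and 7.75 CPM in yHSCs, 314, 119.8 and 11.4 CPM in Selp_low and 82.7, 18.6 and 10.6 CPM in Selp_high paHSCs. Its highest values were those of Selp_low replicates 1 and 2, the same libraries in which 8 B-cell markers summed to 5244 and 7428 CPM, against 63.8 to 472 CPM in the other 7. That list had all of its genes but 1 counted in every library, and its part in the level of *Gpr183* was not tested. Over yHSCs the log2 fold change was 4.84 (SE 1.19) in Selp_low and 2.76 (SE 0.86) in Selp_high paHSCs, both called by DESeq2 (adjusted p = 0.000231 and 0.0140) and neither by edgeR (adjusted p = 0.332 and 0.411). Leaving out 1 library at a time, the first value ranged from 3.66 to 5.29. *Gpr183* also lies within *Ubac2* on the other strand, a gene at 61.4 to 109 CPM over the 9 libraries. The libraries do not mark strand, so reads of a stretch shared by the 2 cannot be told apart by strand.

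Of the 3 channels and transporters, 2 were higher and 1 was lower in Selp_high paHSCs. *Clca3a1* (chromosome 3 from 144435438 to 144466738, minus strand), a regulator of chloride channels, was at 7.80, 1.92 and 4.19 CPM in yHSCs, 28.3, 20.7 and 46.5 CPM in Selp_low and 179.9, 107 and 153 CPM in Selp_high paHSCs. Its groups did not overlap, and its log2 fold change over yHSCs was 4.95 (SE 0.58, adjusted p = 0.0324 by edgeR). Its close copy *Clca3a2* did not exceed 0.517 CPM. *Trpc1*, a cation channel, was at 1.15, 1.11 and 0.848 CPM in yHSCs, 2.82, 2.44 and 3.49 CPM in Selp_low and 7.16, 28.1 and 5.70 CPM in Selp_high paHSCs, where replicate 2 stood well above the others. DESeq2 called its log2 fold change of 3.69 (adjusted p = 2.62e-05). *Slc22a3*, a transporter of organic cations, ran the other way, at 49.6, 39.5 and 53.6 CPM in yHSCs, 22.2, 51.7 and 27.5 CPM in Selp_low and 4.65, 19.6 and 25.6 CPM in Selp_high paHSCs. Every Selp_high library lay below every yHSC library, which was true of 5.28% of all genes. The log2 fold change of *Slc22a3* was -1.55 (SE 0.57) and was called by neither tool (adjusted p = 0.551 by edgeR and 0.148 by DESeq2).

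Genes of the matrix and of extracellular enzymes were higher in Selp_high paHSCs for all 4 members, with none called by edgeR and 3 by DESeq2. *Matn4*, a matrilin of the extracellular matrix, was nearly silent in yHSCs at 0.747, 0 and 0.109 CPM, and was at 7.13, 1.52 and 6.04 CPM in Selp_low and 38.8, 13.3 and 15.9 CPM in Selp_high paHSCs. Its fitted log2 fold change of 6.31 (SE 1.32) was the largest of the 38, but it rests on very few yHSC counts. *Rbpjl*, which overlaps *Matn4* on the other strand, had the same order of group levels, at 0.271, 0 and 0.274 CPM in yHSCs, 3.28, 0.858 and 1.39 CPM in Selp_low and 19.3, 7.31 and 2.55 CPM in Selp_high paHSCs, and how the reads were shared between them was not tested. *Mmp14*, a membrane-anchored metalloproteinase, was at 15.9, 9.49 and 11.9 CPM in yHSCs, 19.7, 18.3 and 25.5 CPM in Selp_low and 64.5, 37.3 and 33.1 CPM in Selp_high paHSCs. *Timp3*, an inhibitor of metalloproteinases that is held in the matrix, was at 5.90, 13.4 and 10.2 CPM in yHSCs, 14.2, 28.6 and 41.3 CPM in Selp_low and 24.4, 76.9 and 93.3 CPM in Selp_high paHSCs. A protease and an inhibitor of its class were thus both above all yHSC libraries in every paHSC library. DESeq2 called *Matn4* (adjusted p = 1.00e-06), *Timp3* (log2 fold change 2.69, adjusted p = 0.000137) and *Mmp14* (1.82, adjusted p = 0.00270). *Enpp5*, of the ectonucleotide phosphodiesterase family, was at 78.2, 45.2 and 65.0 CPM in yHSCs, 123, 49.8 and 112 CPM in Selp_low and 245, 92.8 and 149 CPM in Selp_high paHSCs, with a log2 fold change of 1.34 that DESeq2 did not call (adjusted p = 0.106).

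In the transcription group, edgeR called 1 of 5 members and DESeq2 called 3. *Fhl1* (chromosome X from 55777147 to 55838706, plus strand), a protein of LIM domains that binds transcription factors and the cytoskeleton, was at 18.3, 17.4 and 18.5 CPM in yHSCs. It was at 51.1, 25.9 and 45.3 CPM in Selp_low and 253, 403 and 125 CPM in Selp_high paHSCs. Its log2 fold change over yHSCs was 3.83 (SE 0.46, adjusted p = 0.0378 by edgeR). *Mllt3*, a reader of acylated histones in the super elongation complex and a factor of HSC maintenance, was at 54.7, 68.3 and 67.6 CPM in yHSCs, 94.3, 38.6 and 52.4 CPM in Selp_low and 265, 163 and 109 CPM in Selp_high paHSCs. *Runx1t1*, a co-repressor known from its fusion with RUNX1 in leukemia, was at 5.94, 1.07 and 2.93 CPM in yHSCs, 8.27, 2.97 and 3.08 CPM in Selp_low and 21.5, 17.6 and 9.77 CPM in Selp_high paHSCs. For both genes the Selp_high libraries lay above the other 6, which overlapped. The log2 fold change over yHSCs was 1.47 for *Mllt3* (adjusted p = 0.0160 by DESeq2) and 2.27 for *Runx1t1* (adjusted p = 0.0374 by DESeq2). *Stat4*, a transducer of cytokine signals, gave a log2 fold change of only 0.05 (SE 0.33), with 32.7 to 61.4 CPM in yHSCs and 40.5 to 69.4 CPM in Selp_high paHSCs. The nuclear receptor gene *Rorb* ranged from 0 to 8.86 CPM in yHSCs and from 5.66 to 12.2 CPM in Selp_high paHSCs.

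The largest group, of membrane traffic, cytoskeleton and adaptors, had 9 members, of which 8 were higher in Selp_high paHSCs and 4 were called by DESeq2, with none called by edgeR. *Plscr2*, a phospholipid scramblase, was at 6.96, 4.13 and 2.68 CPM in yHSCs, 67.1, 12.4 and 30.6 CPM in Selp_low and 191, 49.3 and 53.5 CPM in Selp_high paHSCs. Its relative *Plscr1* was at 74.3 to 137 CPM in yHSCs and 79.6 to 228 CPM in Selp_high paHSCs. *Amotl2*, an angiomotin that links junctions to actin, was at 3.12, 5.77 and 7.06 CPM in yHSCs, 6.63, 4.55 and 21.5 CPM in Selp_low and 29.8, 37.4 and 41.3 CPM in Selp_high paHSCs. *Fyb*, an adaptor of integrin activation, was at 32.4, 39.7 and 42.0 CPM in yHSCs, 52.5, 48.6 and 44.0 CPM in Selp_low and 86.8, 100.5 and 79.1 CPM in Selp_high paHSCs. The change of *Fyb* was small but regular, with groups that did not overlap. *Dnm3*, a dynamin of membrane fission, was at 2.54, 0.0928 and 0.438 CPM in yHSCs, 3.28, 11.8 and 2.06 CPM in Selp_low and 15.8, 11.9 and 8.83 CPM in Selp_high paHSCs. The log2 fold changes and DESeq2 adjusted p-values were 4.37 (1.10e-08) for *Plscr2*, 2.75 (1.59e-10) for *Amotl2*, 1.20 (0.000877) for *Fyb* and 3.52 (0.0155) for *Dnm3*. The other 5 members overlapped between yHSCs and Selp_high paHSCs. *Exoc6b*, of the exocyst, had Selp_high levels of 40.0 to 136 CPM against 25.1 to 40.8 CPM in yHSCs, and *Zswim5* and *Pclo*, the latter a scaffold of synapses, stayed below 8 CPM in every library. *Ppp1r16b*, a subunit of protein phosphatase 1, and *Arap2*, which regulates Arf GTPases, were highest in Selp_low replicate 2, at 59.2 and 32.4 CPM. These were, beside *Gpr183*, *Slc22a3* and *Mt1*, the only members tested with a lower fitted level in Selp_high than in Selp_low paHSCs.

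**Figure D3:**
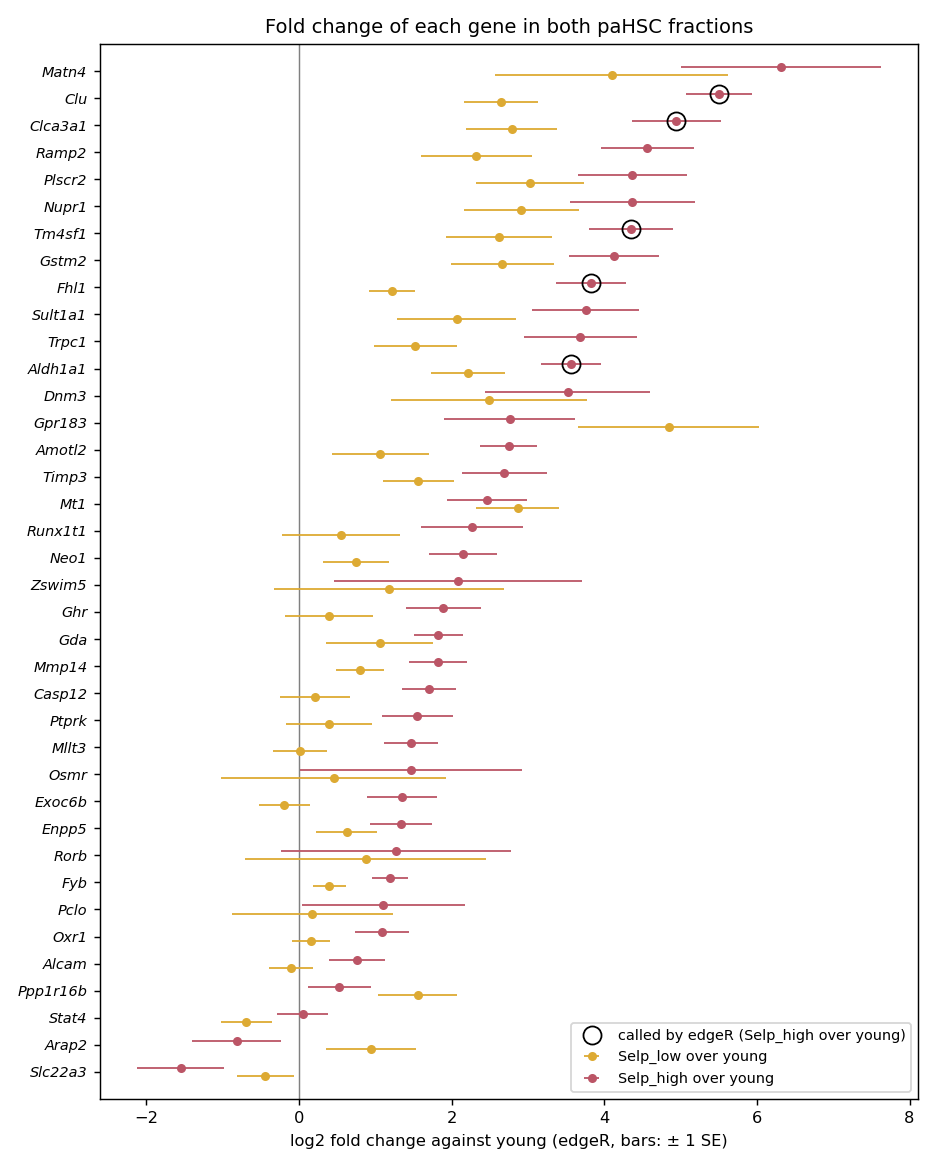
Log2 fold change of each of the 38 genes against yHSCs, from edgeR, in Selp_low (yellow) and Selp_high paHSCs (red), with bars of ± 1 standard error; black rings mark the 5 genes that edgeR called in Selp_high paHSCs. Both series share the yHSC libraries. The red point lies to the right of the yellow one for most genes, and *Gpr183*, *Mt1*, *Ppp1r16b*, *Arap2* and *Slc22a3* are the exceptions.

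In Selp_low paHSCs over yHSCs, 34 of the 38 members had a higher fitted level, with a median log2 fold change of 1.06 against 0.08 over all 20437 genes. edgeR's quasi-likelihood test called 0 members and 0.0% of all genes, although 17 members, all higher, had an unadjusted p under 0.05, as did 7.11% of all genes on the higher side. DESeq2 called 10 members, all higher, and 0.806% of all genes as higher. They were *Clu* (2.64), *Nupr1* (2.91), *Mt1*, *Aldh1a1* (2.22), *Gstm2* (2.66), *Gpr183*, *Tm4sf1* (2.62), *Clca3a1* (2.79), *Matn4* (4.10) and *Plscr2* (3.03), with the edgeR log2 fold change in parentheses where it was not given above. All Selp_low libraries lay above all yHSC libraries for 17 members and for 9.59% of all genes. Of the 10 HSC markers, 7 had a lower and 3 a higher fitted level in Selp_low paHSCs than in yHSCs (median log2 fold change -0.92). In Selp_high paHSCs over yHSCs, 8 of these markers were higher and 2 lower (median 0.705). The members lower in Selp_low paHSCs were *Stat4*, *Slc22a3*, *Exoc6b* and *Alcam*, with log2 fold changes from -0.69 to -0.11, none of them called. This comparison uses the same yHSC libraries as the one for Selp_high paHSCs, so the 2 are not independent.

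Between the paHSC fractions, 33 of 38 members had a higher fitted level in Selp_high than in Selp_low paHSCs. The median log2 fold change was 1.31 against -0.11 over all 20370 genes. edgeR's quasi-likelihood test called 0 members and 0.0% of all genes, and 22 members, all higher, had an unadjusted p under 0.05, as did 6.88% of all genes on the higher side. With the replicate number as a block, it also called 0 members. That fit takes same-numbered libraries of the paHSC fractions as pairs, which the labels do not state. DESeq2 called 4 members, all higher, and 0.455% of all genes as higher. They were *Clu* (log2 fold change 2.90, SE 0.47, adjusted p = 0.000102 by DESeq2 and 0.338 by edgeR), *Fhl1* (2.67, SE 0.50, adjusted p = 0.00136 and 0.338), *Clca3a1* (2.2, SE 0.38, adjusted p = 0.00311 and 0.338) and *Ramp2* (2.28, SE 0.67, adjusted p = 0.0465 and 0.338). All Selp_high libraries lay above all Selp_low libraries for 20 members and for 10.3% of all genes. The 5 members that were lower in Selp_high paHSCs were *Gpr183* (-2.01), *Arap2* (-1.67), *Slc22a3* (-1.03), *Ppp1r16b* (-0.94) and *Mt1* (-0.34), none of them called, and for none of the 38 did all Selp_high libraries lie below all Selp_low libraries, as they did for 10.7% of all genes.

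The stepwise order of yHSCs, Selp_low and Selp_high paHSCs held in the group means of 28 of 38 members, or 73.7%, and of 11.5% of 22594 genes. As a summary per library, the median deviation of the members from their own means on the log2 scale was -0.69, -1.62 and -1.07 in yHSCs, 0.20, -0.64 and -0.01 in Selp_low and 1.46, 1.26 and 0.99 in Selp_high paHSCs. The median over all genes stayed between -0.25 and 0.15. The lowest Selp_high library was thus above the highest Selp_low library, and Selp_low replicate 2, at -0.64, sat next to yHSC replicate 1, at -0.69. Selp_low replicate 2 is also the library with 44.8% of its counts in 10 genes, and the lowest of its group for 27 of 38 members against 31.8% of all genes.

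**Figure D4:**
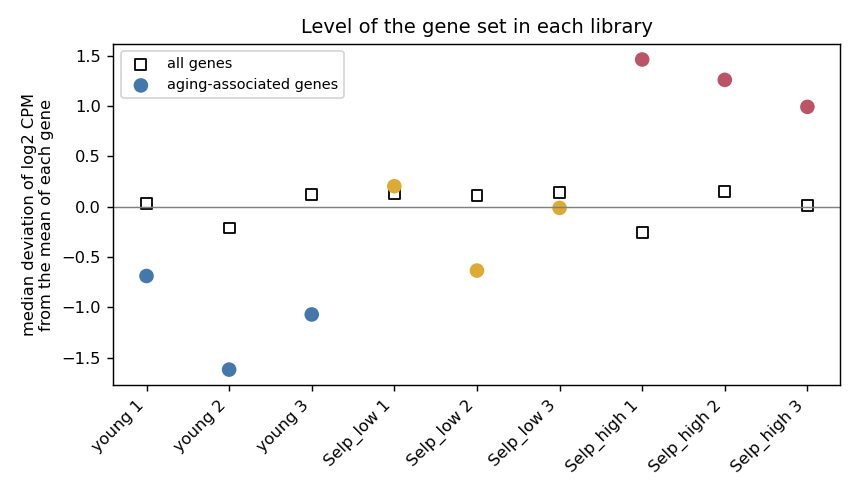
Median over the 38 genes of log2 CPM minus the mean of each gene, in each of the 9 libraries (filled points, blue for yHSC, yellow for Selp_low and red for Selp_high), beside the same median over all 22594 genes (open squares). The filled points run from -1.62 to 1.46 while the squares stay within -0.25 and 0.15.

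The members did not all vary together within the Selp_high fraction. Replicate 1 was the highest Selp_high library for 21 of 38 members, replicate 2 for 13 and replicate 3 for 4, where the shares over all genes were 30%, 40.6% and 29.4%. *Nupr1*, *Sult1a1*, *Plscr2*, *Tm4sf1*, *Casp12* and *Mllt3* were among those led by replicate 1, and *Clu*, *Fhl1*, *Trpc1*, *Neo1* and *Alcam* among those led by replicate 2, with *Timp3*, *Amotl2*, *Slc22a3* and *Zswim5* led by replicate 3. Replicate 2 was also the library with the most RNA of the megakaryocyte and platelet markers, which summed to 7136 CPM there, to 1203 and 3650 CPM in replicates 1 and 3 and to 128 to 2015 CPM in Selp_low paHSCs. *Nupr1* and *Sult1a1* are neighbours on chromosome 7, 42.0 kb apart on the minus strand, and both had their highest yHSC, Selp_low and Selp_high values in replicate 1. *Casp12*, *Plscr2*, *Gstm2*, *Tm4sf1* and further members on other chromosomes did so too. Replicate 1 was the highest library for 24 of 38 members in yHSCs and for 21 in each paHSC fraction. Over all genes its shares were 43.8% in yHSCs, 33.7% in Selp_low and 30% in Selp_high paHSCs. The gap between *Nupr1* and *Sult1a1* holds most of *Sgf29*, which lies on the other strand and overlaps the end of *Sult1a1*. *Sgf29* was at 59.1 to 172 CPM over the 9 libraries. Reads of that overlap cannot be assigned by strand, and their part in these levels was not tested. The other members that lie close together, *Fyb* and *Osmr* (150 kb) and *Aldh1a1* and *Gda* (748 kb), had 1 and 3 protein-coding genes between them.

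Per length of transcript, as FPKM from the gene lengths in the authors' file, *Sult1a1*, *Clu*, *Nupr1* and *Mt1* were the most abundant members in Selp_high paHSCs, at 251 ± 198, 142 ± 41.9, 114 ± 102 and 104 ± 37.6 FPKM (SD, n = 3). The spread of *Sult1a1* and *Nupr1* is nearly as large as their mean, so the order among these 4 is not resolved. *Fhl1* and *Aldh1a1* followed at 70.1 ± 37.4 and 63.9 ± 5.06 FPKM. In yHSCs the leading members were *Oxr1*, *Mt1* and *Sult1a1*, at 18.7 ± 1.59, 18.1 ± 11.5 and 18.0 ± 10.7 FPKM. *Pclo*, *Mt2* and *Osmr* stayed below 0.5 FPKM on average in every group.

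Genes that work with the members were followed from a list of 66 partners, of which 57 were tested. Their median log2 fold change in Selp_high paHSCs over yHSCs was -0.13, 20 were higher and 37 lower, and DESeq2 called 5 higher and 3 lower while edgeR called 0 (12 had an unadjusted p under 0.05). Over all genes tested by edgeR, 47.8% were higher, 7.59% had an unadjusted p under 0.05 and 0.165% were called. DESeq2 called 1.47% of the genes it was given. Next to *Aldh1a1*, several genes of retinoic acid were higher in Selp_high paHSCs. *Rdh10*, which makes the retinaldehyde that Aldh1a1 uses, was at 6.58, 7.70 and 8.59 CPM in yHSCs, 23.8, 13.7 and 18.1 CPM in Selp_low and 75.1, 43.6 and 26.3 CPM in Selp_high paHSCs (log2 fold change 2.64, adjusted p = 1.91e-06 by DESeq2). *Rarb*, a retinoic acid receptor gene, was at 1.29, 2.71 and 1.64 CPM in yHSCs and 34.5, 10.1 and 7.05 CPM in Selp_high paHSCs (3.16, adjusted p = 0.000335 by DESeq2). *Cyp26b1*, which degrades retinoic acid, was at 0.509, 2.44 and 1.23 CPM in yHSCs and 6.05, 10.3 and 12.7 CPM in Selp_high paHSCs (2.75, adjusted p = 0.00125 by DESeq2). These 3 genes, for supplying the substrate of Aldh1a1 and for sensing and removing its product, lay above all yHSC libraries in every Selp_high library. Of the 7 retinoid genes tested, 4 had a higher fitted level in Selp_high paHSCs than in yHSCs and 3 a lower one. The other 4 retinoid genes tested were not called by either tool in this comparison. The related synthase gene *Aldh1a2* was lower, at 0.0741 to 0.310 CPM in Selp_high against 0.192 to 2.97 CPM in yHSCs. *Aldh1a7*, also on this list, was at 2.24 to 7.70 CPM in yHSCs and 0.620 to 3.10 CPM in Selp_high paHSCs. Its Selp_low libraries, at 3.43 to 10.4 CPM, all lay above its Selp_high libraries. The receptor gene *Rara* overlapped, at 2.71 to 29.2 CPM in yHSCs and 7.29 to 18.9 CPM in Selp_high paHSCs. So did *Rarg*, at 1.46 to 13.9 CPM and 6.28 to 51.1 CPM. Between the paHSC fractions, DESeq2 called 1 retinoid gene, lower in Selp_high paHSCs.

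**Figure D5:**
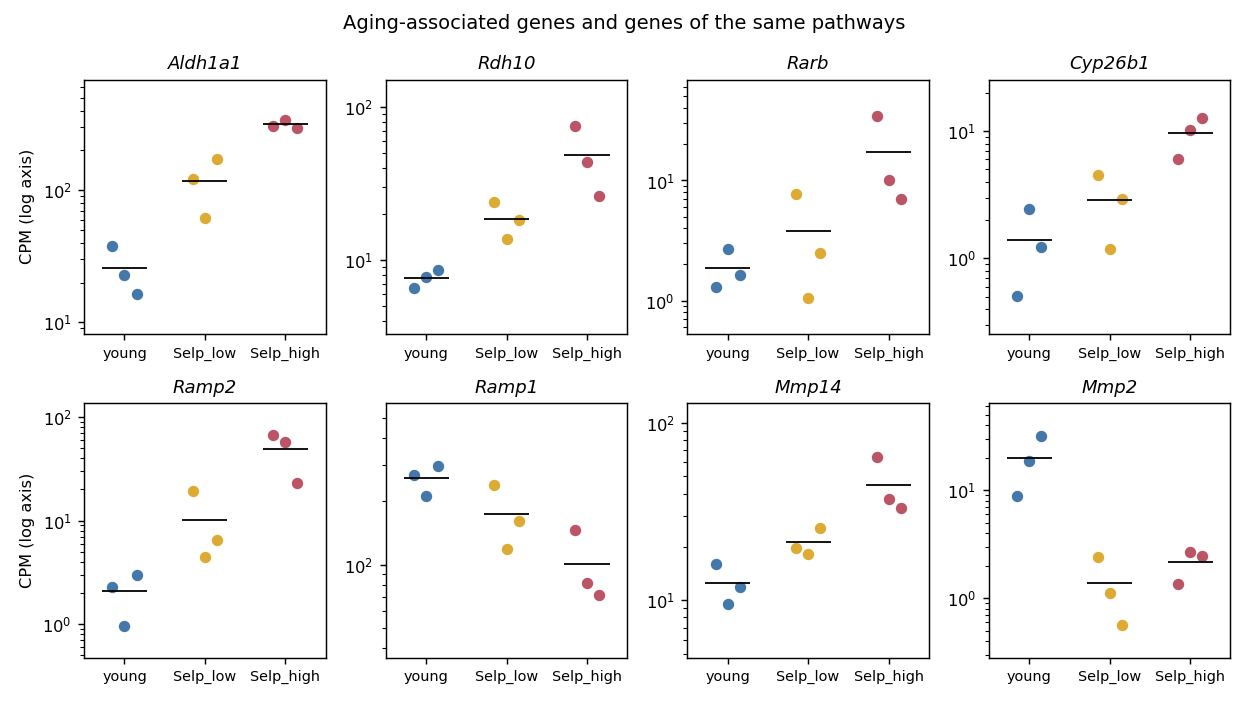
Level in CPM, on a log axis, of *Aldh1a1*, *Ramp2* and *Mmp14* with genes of the same pathways in each library; each point is 1 library and each line the mean of 3. *Rdh10*, *Rarb* and *Cyp26b1* were higher in Selp_high paHSCs than in yHSCs as *Aldh1a1* was, whereas *Ramp1* and *Mmp2* were lower where *Ramp2* and *Mmp14* were higher.

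For *Ramp2*, *Mmp14* and *Alcam*, DESeq2 called a partner lower in Selp_high paHSCs while the member itself had a higher fitted level. *Ramp1*, which pairs with Calcrl as *Ramp2* does but favours the ligand CGRP, was at 267, 212 and 294 CPM in yHSCs and 146, 81.7 and 71.9 CPM in Selp_high paHSCs (log2 fold change -1.39, adjusted p = 0.0136 by DESeq2). *Calcrl* itself was at 47.6, 43.7 and 81.0 CPM in yHSCs and 23.2, 55.9 and 33.0 CPM in Selp_high paHSCs. *Mmp2*, the gelatinase that Mmp14 activates, was at 8.79, 18.7 and 31.9 CPM in yHSCs, 2.43, 1.12 and 0.563 CPM in Selp_low and 1.34, 2.69 and 2.47 CPM in Selp_high paHSCs. Its log2 fold change over yHSCs was -3.76 in Selp_low and -3.19 in Selp_high paHSCs (adjusted p = 7.05e-05 and 6.38e-07 by DESeq2, 0.332 and 0.108 by edgeR). *Cd6*, the ligand of Alcam and a T-cell gene, was highest in Selp_low replicates 1 and 2, at 32.9 and 69.7 CPM, and was 2.85 to 9.42 CPM in yHSCs and 0.917 to 2.15 CPM in Selp_high paHSCs (log2 fold change of Selp_high over yHSCs -2.18, adjusted p = 0.0170 by DESeq2). Of the glutathione transferases of the mu class other than *Gstm2*, DESeq2 called 1 of the 5 tested, *Gstm6* (2.82, adjusted p = 0.0426), and of the neogenin ligands and co-receptors *Rgmb* (1.47, adjusted p = 0.00517). None of the 4 metal response genes tested, of the 10 genes of *Osmr* and *Ghr* signaling, of the 8 of the elongation complex around *Mllt3* or of the 7 around *Runx1t1* was called by either tool in this comparison.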

How the data were processed

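RNA of sorted HSCs was amplified with a SMARTer kit, and libraries were made with a transposase kit that does not mark strand. The authors deposited 1 table of raw counts per gene for the 9 libraries. According to the submitters' processing notes, it was made with CASAVA 1.8, HISAT2 2.2.1, featureCounts 2.0.6 and mm39, with DESeq2 1.42.0 for their tests. The annotation release and the handling of strand and of multimapping reads were not given in the sources used. Depth was 24866975 to 35375310 counts, and 3 counts correspond to 0.0848 to 0.121 CPM (counting error only). The table holds 0 sample columns beyond these libraries. The labels name no separate mice, so p-values measure the spread between libraries, which may be partly technical.

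Counts were analysed in R 4.3.3 with edgeR 4.0.16 (TMM, filterByExpr by group, quasi-likelihood test with the legacy setting) for each pair of groups alone, and with DESeq2 1.42.0 as an alternative. Calls needed an adjusted p no higher than 0.05 and a log2 fold change of 1 or more in size. edgeR adjusted p over all genes that passed filterByExpr. DESeq2 was given every gene with a count in the 2 groups. Genes that its own filters left without an adjusted p counted as not called and stayed in its shares, so these are over more genes than those of edgeR. The procedure was tested on simulated data. Tables and plots used Python 3.11.15, pandas 2.3.3 and matplotlib 3.10.9. Values per library are given for members that either tool called, those whose Selp_high and yHSC libraries did not overlap, and *Clu*, *Nupr1*, *Sult1a1*, *Gpr183*, *Neo1* and *Timp3*, and for up to 8 partner genes, those called with the largest changes first. *Calcrl*, *Aldh1a2*, *Aldh1a7*, *Rara*, *Rarg*, *Mt2* and the overlapping or related genes were chosen for naming with their values known. The members, lists and tests were chosen with earlier results of these data known. Same-numbered Selp_high and Selp_low libraries deviated together (correlations of 0.178, 0.276 and 0.303, each over 0.1). On that ground alone the fit with the replicate number as a block was read as a paired one for that comparison. The labels give no pairing, and libraries of different numbers were not compared in this way. Same-numbered paHSC and yHSC libraries did not deviate together (-0.417 to 0.0917). Alternatives covered scaling, filters, tool, samples fitted, the block and leaving out each library.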

Additional observations from a re-analysis of the deposited data

How the results depend on the processing

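The direction of the gene set was stable while the number of calls was not. Against the 5 members that edgeR called in Selp_high paHSCs over yHSCs, upper-quartile scaling gave 3, no low-count filter 24, DESeq2 25, edgeR without the legacy setting 10 and the replicate block 0, and leaving out 1 library gave 0 to 4. For Selp_low over yHSCs, where edgeR called 0 members, the count was 8 with no filter, 10 with DESeq2 and 0 to 1 with 1 library left out (1 without Selp_low replicate 3). For Selp_high over Selp_low, also 0, it was 3 with no filter, 4 with DESeq2 and 0 to 1 with 1 library left out (1 without Selp_low replicate 3). Over all genes the counts of the 3 comparisons were 33, 0 and 0 by edgeR, 472, 365 and 193 with no filter and 607, 516 and 608 by DESeq2; for the first it was 92 without the legacy setting, 19 in 1 fit of the 9 libraries and 0 with the block, and the block gave 9 between the paHSC fractions. The numbers do not pair the paHSC libraries with yHSCs, so the block's loss of calls there says nothing on the size of an effect. With 1 library left out, the members' median log2 fold change ranged from 1.79 to 2.64, 0.91 to 1.45 and 1.14 to 1.47 in the 3 comparisons, and the number of members higher from 35 to 36, 30 to 34 and 33 to 33. The fitted sign turned only for members that neither tool had called with all libraries in the same comparison. In Selp_high over yHSCs this was *Stat4*, at -0.16 without yHSC replicate 1 and -0.21 without Selp_high replicate 1, in a range that reached 0.26. In Selp_low over yHSCs it turned with 1 library left out for *Casp12* (-0.36 to 0.52), *Oxr1* (-0.000799 to 0.31), *Osmr* (-0.12 to 1.8), *Ghr* (-0.0049 to 0.93), *Alcam* (-0.30 to 0.0784), *Runx1t1* (-0.12 to 1.27), *Pclo* (-0.33 to 1.78, with -0.14 and -0.04 between them) and *Mllt3* (-0.45 to 0.21, with -0.13 between them). *Mllt3* also turned with RLE scaling (-0.0139), no filter (-0.0731), DESeq2 (-0.0322), 1 fit of all libraries (-0.0402) and the replicate block (-0.0952). Without Selp_low replicates 2 and 3, the libraries with the most counts in 10 genes and an alternative chosen after seeing the data, *Exoc6b* was at 0.12 and *Pclo* at -0.19 over yHSCs, and *Mt1* was at 0.37 in Selp_high over Selp_low. The cause of these changes was not tested. With 3 libraries a group and few counts for *Mt2*, *Matn4*, *Osmr*, *Pclo*, *Rorb* and *Zswim5* in yHSCs, fold changes of these genes are the least certain. *Matn4*, *Osmr*, *Rorb* and *Zswim5* had 0 counts only in yHSC replicate 2, the library with the fewest genes counted.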

Other observations

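Outside the 39 genes, 12 others that have been reported as higher in old HSCs were followed, *Selp* among them, which the sort itself used and which is therefore a check and not a result. *Slamf1*, which encodes the CD150 of the gate, is on this list as well. So is *Itga2b*, which is also on the list of megakaryocyte and platelet markers. The rest are *Vwf*, *Itgb3*, *Cd38*, *Sbspon*, *Efna1*, *Cd9*, *Cavin2*, *Ehd3* and *Jam2*. With *Selp*, *Slamf1* and *Itga2b* counted, all 12 had higher fitted levels in Selp_high paHSCs than in yHSCs. The median log2 fold change was 3.61, against -0.03 over all genes, and 6 were called by edgeR and 12 by DESeq2. Over all genes, edgeR called 0.105% of those it tested and DESeq2 0.926% of those it was given as higher. *Cavin2*, a coat protein of caveolae, was at 24.7, 9.0 and 14.2 CPM in yHSCs, 87.0, 105 and 178 CPM in Selp_low and 313, 471 and 415 CPM in Selp_high paHSCs (log2 fold change of Selp_high over yHSCs 4.61, SE 0.46, adjusted p = 0.0209 by edgeR). *Ehd3*, of endosomal recycling, was at 12.5, 15.4 and 16.2 CPM in yHSCs, 47.7, 63.0 and 90.0 CPM in Selp_low and 169, 210.4 and 295 CPM in Selp_high paHSCs (3.90, SE 0.30, adjusted p = 0.0159 by edgeR). *Jam2*, a junctional adhesion molecule, was at 6.65, 6.54 and 7.39 CPM in yHSCs, 23.2, 7.66 and 15.9 CPM in Selp_low and 98.1, 57.4 and 65.5 CPM in Selp_high paHSCs (3.40, SE 0.31, adjusted p = 0.0191 by edgeR). The groups of these 3 genes did not overlap and stood in the same order as those of *Clu* and *Aldh1a1*. In Selp_low paHSCs over yHSCs the median of the 12 was 1.98, again with *Selp* counted. DESeq2 called 7 of them, and 0.806% of all genes as higher.

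Of 9 genes reported as lower in old HSCs, 7 had lower fitted levels in Selp_high paHSCs than in yHSCs, and 2 were called by edgeR. Over all 20017 genes tested, edgeR called 12 as lower, and 47.8% had a higher fitted level. *Flt3*, a cytokine receptor of early progenitors that lie outside the SLAM gate, was at 207, 331 and 563 CPM in yHSCs, 42.5, 5.41 and 7.69 CPM in Selp_low and 4.29, 7.80 and 6.74 CPM in Selp_high paHSCs (log2 fold change -5.87, SE 0.47, adjusted p = 0.0159 by edgeR). *Cd34*, a sialomucin found on progenitors and lost from adult long-term HSCs, was at 517, 741 and 944 CPM in yHSCs, 169, 21.9 and 46.9 CPM in Selp_low and 85.8, 62.5 and 78.1 CPM in Selp_high paHSCs (-3.30, SE 0.29, adjusted p = 0.0184 by edgeR). For both genes every yHSC library lay above every paHSC library, and how far the share of such progenitors in the sorted cells entered the values was not tested. The lymphoid genes of the list did not share 1 pattern: *Dntt*, the terminal transferase of early lymphoid cells, was at 24.0, 77.0 and 83.8 CPM in yHSCs, 9.39, 2.97 and 6.11 CPM in Selp_low and 2.90, 14.5 and 2.55 CPM in Selp_high paHSCs. *Blnk* and *Il7r* were highest in Selp_low replicates 1 and 2, the libraries with the largest B-cell sums. *Blnk*, an adaptor of the B-cell receptor, was at 10.4, 22.2 and 23.9 CPM in yHSCs, 195, 231 and 4.16 CPM in Selp_low and 11.0, 37.4 and 16.6 CPM in Selp_high paHSCs.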
